A study of Mus musculus with 10 samples.

Results

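The comparison joined the 2 ends of a developmental path in mouse bone marrow, from the long-term hematopoietic stem cell (LT-HSC) to the common dendritic cell progenitor (CDP). The assay was ATAC-seq, in which a transposase cuts DNA that is not packed away, and each library came as a list of peaks, the places where cuts piled up. The 2 wild-type LT-HSC lists and the 2 wild-type CDP lists were merged on chromosomes 1 to 19 and X wherever peaks shared 1 bp or more, and 91175 regions resulted. A region was called gained when both CDP lists and neither LT-HSC list held a peak in it, and lost in the reverse case. By that rule 27849 regions were gained, 30.5% of all, and 6297 were lost, 6.91% of all. The 4 lists were part of a series of 10, whose merged peaks made 114366 regions.

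All cells were primary cells from the marrow of C57BL/6 mice, taken by magnetic selection followed by flow sorting, with 5000 to 7200 cells per library. LT-HSC were lineage-negative cells with CD117, Sca-1 and CD150 and without CD135 and CD48. CDP were lineage-negative cells with CD115, CD135 and intermediate CD117 (CD117int) and without Sca-1 and IL-7R. Between them lay 2 wild-type stages that the rule did not use, the lymphoid-primed multipotent progenitor (LMPP; CD117+ Sca-1+ CD135+) and the monocyte-dendritic cell progenitor (MDP; CD117+ CD115+, without Sca-1 and IL-7R). The last group was MDP of the genotype labelled IRF8-deficient (IRF8KO), which lack the transcription factor IRF8. Each of the 5 groups had 2 libraries. The sex and age of the mice, the number pooled and the kind of knockout allele were not given. The wild-type libraries were described as biological duplicates, and the knockout libraries were not. One label of the LMPP libraries called them short-term stem cells, against their titles and sort markers, which were followed.

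LT-HSC sit at the top of blood formation, hold themselves in self-renewal and can form every blood lineage. The CDP lies far down one branch and gives rise to conventional and plasmacytoid dendritic cells, the cells that show antigen to T cells and that make type I interferon. Between these ends the factors that hold the stem cell state, such as MECOM, MEIS1 and HLF, give way to PU.1, IRF8 and other factors of the myeloid and dendritic branches, and open chromatin at enhancers changes more than at promoters. A sorted population is a mixture, and a peak list cannot tell a region open in few cells from one weakly open in all.

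Promoters called alike in the full lists and in lists cut to equal length belonged to 164 genes gained and 337 lost. Few of them were in the gene lists used here, with 9 gained and 18 lost, so the examples are not a sample of the rest. The windows below are the 250 bases before a RefSeq start of the gene (GRCm38.p6, the assembly also called mm10), 5′ to 3′ on the gene's strand, and were chosen because each lay over a region called gained, or lost, at both list lengths. Those of Gp9 and Btla lie inside the full span of the gene, so they belong to an inner start. Capitals mark matches on either strand to any of 7 motifs. These were the ETS, RUNX, GATA, AP-1 and C/EBP motifs, whose letters are given with their shares further on, and the ETS and IRF composite element and the interferon-stimulated response element (ISRE), each searched as its core half-sites with any 2 bases between them. The first 4 are gained promoters: Siglech, a lectin receptor of plasmacytoid dendritic cells (chr7:55767934-55768183, + strand), Itgax, the integrin CD11c (chr7:128129300-128129549, + strand), Tlr9, a receptor for unmethylated DNA (chr9:106222348-106222597, + strand), and Btla, an inhibitory receptor (chr16:45224087-45224336, + strand). The other 3 are lost promoters: Klf1, a master factor of red cell genes (chr8:84901732-84901981, + strand), Epb42, a protein of the red cell membrane skeleton (chr2:121036878-121037127, - strand), and Gp9, a subunit of the platelet receptor for von Willebrand factor (chr6:87777820-87778069, + strand).
Siglech: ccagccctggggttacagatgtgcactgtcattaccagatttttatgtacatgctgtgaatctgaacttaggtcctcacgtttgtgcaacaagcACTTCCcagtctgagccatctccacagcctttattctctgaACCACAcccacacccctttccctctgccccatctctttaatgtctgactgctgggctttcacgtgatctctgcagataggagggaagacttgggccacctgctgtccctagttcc
Itgax: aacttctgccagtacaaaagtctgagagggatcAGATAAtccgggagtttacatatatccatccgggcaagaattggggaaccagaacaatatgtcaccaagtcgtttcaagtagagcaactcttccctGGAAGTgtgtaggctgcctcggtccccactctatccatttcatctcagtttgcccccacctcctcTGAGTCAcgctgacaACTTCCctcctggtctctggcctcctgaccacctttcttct
Tlr9: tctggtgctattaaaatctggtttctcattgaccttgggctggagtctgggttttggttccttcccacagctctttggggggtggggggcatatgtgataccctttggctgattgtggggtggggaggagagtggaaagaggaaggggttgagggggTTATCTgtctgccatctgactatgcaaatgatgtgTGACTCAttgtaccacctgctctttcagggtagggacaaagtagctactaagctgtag
Btla: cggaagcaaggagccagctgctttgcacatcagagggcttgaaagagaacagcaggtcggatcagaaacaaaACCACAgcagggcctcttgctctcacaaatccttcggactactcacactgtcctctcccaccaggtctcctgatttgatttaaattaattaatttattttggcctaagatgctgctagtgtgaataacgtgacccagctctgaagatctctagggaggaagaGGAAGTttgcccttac
Klf1: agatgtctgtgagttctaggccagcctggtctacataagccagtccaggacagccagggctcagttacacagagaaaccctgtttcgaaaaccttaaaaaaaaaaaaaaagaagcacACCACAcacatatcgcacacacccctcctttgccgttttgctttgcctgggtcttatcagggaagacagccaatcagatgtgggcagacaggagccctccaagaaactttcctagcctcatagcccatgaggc
Epb42: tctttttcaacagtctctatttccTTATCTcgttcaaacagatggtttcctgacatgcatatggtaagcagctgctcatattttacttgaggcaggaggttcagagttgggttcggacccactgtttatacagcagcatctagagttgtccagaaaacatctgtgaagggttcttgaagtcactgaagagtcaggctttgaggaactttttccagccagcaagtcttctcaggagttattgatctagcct
Gp9: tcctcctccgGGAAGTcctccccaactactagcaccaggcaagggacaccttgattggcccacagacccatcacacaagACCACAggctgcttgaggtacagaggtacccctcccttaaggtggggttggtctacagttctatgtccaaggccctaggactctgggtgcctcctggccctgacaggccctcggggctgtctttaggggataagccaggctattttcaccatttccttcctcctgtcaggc

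The 4 printed gained promoters, and those of Ccr2 and Ly6c2, were detected in both LMPP, both MDP, both CDP and both IRF8KO MDP lists. The other 3 listed genes with a gained promoter differed: Spib had a peak in LMPP replicate 2 and the CDP lists, Cd209d in MDP replicate 1 and the CDP lists, and Tubb3 in both MDP and both CDP lists, and no IRF8KO list held any of the 3. The lost promoters left the lists at different stages. The Klf1 region was detected in the LT-HSC lists and in none of the other 8. Epb42 was detected in LT-HSC and in LMPP replicate 1, and Gp9 in LT-HSC, both LMPP lists, MDP replicate 2 and IRF8KO MDP replicate 2. The promoter of Gata1, the founding factor of the red cell and platelet branch, behaved like that of Klf1, with a peak in the LT-HSC lists and none in the other 8.

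Regions called lost or gained overlapped few promoters. Of 21045 promoter windows (250 bases before to 50 after a start), 501 lay over a gained region (2.38%) and 436 over a lost region (2.07%), whereas 10641 (50.6%) lay over a region present in all 4 lists. Among the windows called the same way at both list lengths, 176 were gained and 380 were lost. Besides the printed ones, the listed genes with such a gained promoter were Spib, Cd209d, Tubb3, Ccr2 and Ly6c2. Ly6c2 has a near-identical neighbour, Ly6c1, so its call is uncertain. The listed genes with such a lost promoter also included the stem cell genes Tek and Mllt3, the platelet genes Cavin2, Tubb1 and Gp1ba, the red cell genes Rhag and Tspo2, the mast cell genes Cpa3 and Mitf, and Robo1, Nrxn3, Gria2, Tie1 and Col1a2.

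The ETS letters GGAAGT were found on either strand in the 250 bases of 26.5% of windows over a gained region, 12.2% over a lost region, 24.4% over a region in all 4 lists and 20.5% of all 21045 windows. The RUNX letters TGTGGT were found in 17.8%, 11.7%, 10.0% and 12.2%, in the same order, and the ISRE letters in 6.99%, 2.98%, 2.51% and 2.98%. The GATA letters AGATAA went the other way, with 7.19% of gained, 11.9% of lost, 4.9% of shared and 8.84% of all windows. The ETS and IRF composite was in 3.19%, 2.29%, 1.84% and 2.19%. In the windows called at both list lengths, ETS stood at 34.7% of gained and 12.4% of lost, RUNX at 21.6% and 10.8%, and GATA at 7.39% and 11.8%. The composite changed order there, with 1.70% of gained and 2.63% of lost windows, and it rested on 3 and 10 windows. The AP-1 letters TGANTCA were in 7.58% of gained, 6.65% of lost and 6.17% of all windows, and the C/EBP letters TTGCNNCAA in 0.998%, 1.61% and 1.53%. The E-box (CANNTG) and the STAT motif (TTCNNNGAA) were searched too: the E-box was in 66.1%, 64.4%, 54.9% and 62.8% of gained, lost, shared and all windows, and the STAT letters in 7.98%, 5.28%, 5.49% and 6.64%. The composite and ISRE matches can overlap each other or an ETS match, and median GC content was 55.2% in gained, 56.0% in lost and 61.2% in shared windows. These are matches of letters, not binding sites.

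The number of regions gained and lost depended on how many peaks each list held, and the lists were unequal. LT-HSC replicate 1 had 31314 peaks and replicate 2 had 52132, against 69585 and 65472 in CDP. Tags inside peaks, a measure of signal over background, made up 19.3% and 38.1% of tags in LT-HSC and 46.4% and 53.4% in CDP. Sequencing was also deeper in CDP, with 10166833 and 7985428 tags against 5479825 and 6047916. A peak had to hold 11 tags in each LT-HSC library and 13 and 12 tags in CDP, a smaller part of all tags there. In all 4 measures the CDP values lay on one side of the LT-HSC values, and an exact two-sided permutation test gave p = 0.333 for each, the smallest that 2 against 2 libraries can give. Depth and signal therefore cannot be told apart from stage in the full lists. The libraries of the other 3 groups had 50711 to 64493 peaks.

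When every list was cut from the top to the 31314 peaks of the shortest, gains and losses came close to each other. Gained regions numbered 10495 of 49128 (21.4%) and lost regions 8883 (18.1%), a ratio of 1.18, against 4.42 in the full lists. The ratio stayed between 1.08 and 1.18 at every shorter length tried, from 5000 peaks per list upward. Cutting assumes that the row order of the files follows peak strength. The order was shared between replicates, with Spearman correlations of row position across regions of 0.882 in LT-HSC and 0.946 in CDP. Regions called alike at both lengths were 8005 gained, which is 28.7% of the full and 76.3% of the equal-length calls, and 4796 lost, which is 76.2% and 54.0%. Of the regions lost at equal length, 3148 (35.4%) had a peak in both full CDP lists, below the row at which those lists were cut. Another 939 (10.6%) had a peak in 1 full CDP list. Of the regions gained at equal length, 2490 (23.7%) had a peak in the full list of LT-HSC replicate 2. LT-HSC replicate 1 was not shortened by the cut, so it could hold none of them, and the shares are not alike.

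**Figure D1:**
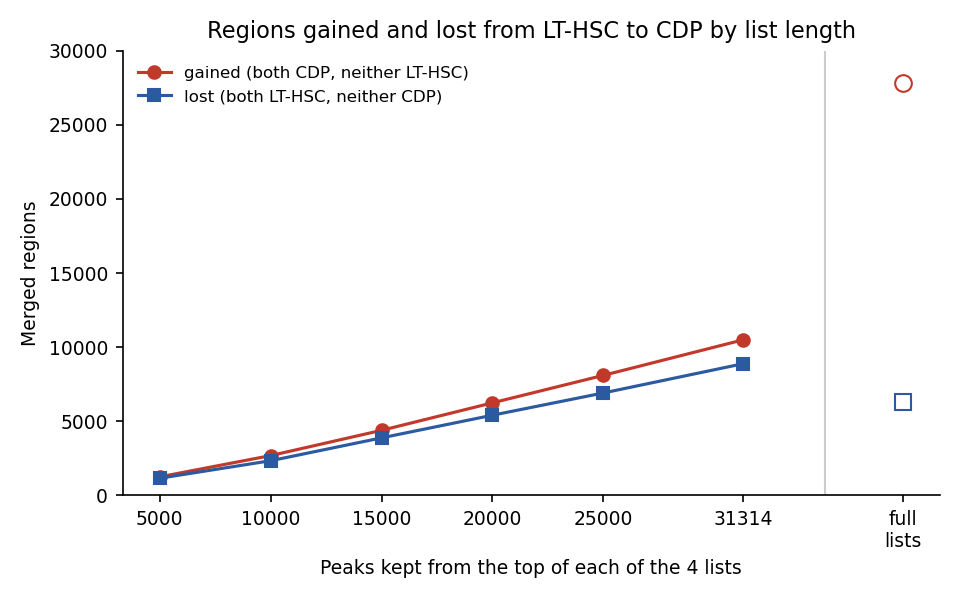
Number of merged regions gained (red circles) and lost (blue squares) from LT-HSC to CDP, against the number of peaks kept from the top of each of the 4 lists; open symbols on the right are the full, unequal lists. The lines run close together up to 10495 gained and 8883 lost at 31314 peaks, and the full lists separate to 27849 and 6297.

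LT-HSC replicate 1 set much of the count of lost regions. With replicate 2 as the only stem cell list, 16787 regions were lost, and 10490 regions were present in replicate 2 alone of the 4 lists. With replicate 1 as the only stem cell list, 6815 were lost and 37142 gained. Another 9293 regions were held by LT-HSC replicate 2 and both CDP lists but not by replicate 1. The 2 LT-HSC lists shared 29412 regions.

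Gained and lost regions were narrower and ranked lower than the regions present in all 4 lists. The median width was 695 bp for gained, 725 bp for lost and 1477 bp for shared regions. Gained regions stood at a median of 56.6% and 59.98% of the way down the 2 CDP lists, where shared regions stood at 20.2% and 21.6%. Lost regions stood at 66.4% and 42.8% of the way down the LT-HSC lists. In the top 25% of both lists of their own group were 2226 gained and 412 lost regions.

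Gained and lost regions lay near gene starts less often than all regions did, the gained ones least often. Lost regions were more often far from a start. Shares by distance to a start leave out chromosome 18, for which the reference promoter table has no starts. The table held a start for 17274 of 21631 protein-coding genes, so near shares can be too low and far shares too high. Of the gained regions, 2.70% touched the 1 kb around a RefSeq start (95% Wilson interval 2.51 to 2.90), and of the lost regions 7.57% did (6.92 to 8.26). For regions in all 4 lists the share was 40.0%, and over all regions it was 12.97%. At the far end, 36.2% of lost regions were over 100 kb from any start in the promoter table, against 23.3% of gained and 22.5% of all. At equal length the near shares were 3.86% of gained and 10.0% of lost, and the far shares 23.5% and 31.4%. Over all regions at equal length the near and the far share were each 21.3%. Shares inside a gene were close to each other, at 51.7% of gained, 53.9% of lost and 56.1% of all regions. The intervals cover counting error over regions only.

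The highest ranked gained regions were chr9:47733337-47735146 inside Cadm1, an adhesion molecule, chr11:46125890-46128987 inside Adam19, a membrane protease, and chr10:14474421-14476724 inside Adgrg6, an adhesion receptor. The Adam19 region overlapped a RefSeq start but lay away from both ends of the gene's full span. The Cadm1 region was present in every LMPP, MDP and IRF8KO MDP list. Those at Adam19 and Adgrg6 were present in both wild-type MDP lists and in neither IRF8KO list. The highest ranked lost region, chr18:9210370-9214678, overlapped Fzd8, a Wnt receptor gene, and its centre lay 0.332 kb outside the gene. It was present in all 4 LMPP and wild-type MDP lists and in both IRF8KO MDP lists, so it left the lists only at the CDP. The second, chr6:11593453-11595428, had no protein-coding gene within 100 kb and was present in all LMPP and wild-type MDP lists but in no IRF8KO list. Next came chr9:8543629-8546298, which lay at the start of Trpc6, a cation channel.

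The 4 intermediate libraries, which the rule did not use, placed the gained and lost regions along the path. Of the gained regions, LMPP lists held 33.4% ± 0.759 and wild-type MDP lists 67.3% ± 1.102 (SD, n = 2 each). Of the lost regions, LMPP lists held 70.2% ± 1.22 and MDP lists 19.6% ± 0.674 (SD, n = 2 each). Both replicates of MDP lay above both of LMPP for gained regions and below them for lost regions, by 33.9 and 50.6 percentage points, with an exact two-sided permutation p of 0.333 for each. Shared regions stayed at 98.3% in LMPP and 98.0% in MDP. The same order held at equal length, where gained regions stood at 25.7% in LMPP and 66.9% in MDP, and lost regions at 57.6% and 16.3%. Gained regions in the top 25% of both CDP lists were held to 62.4% by LMPP and to 98.7% by MDP, and lost regions of that rank to 89.8% and 31.7%.

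**Figure D2:**
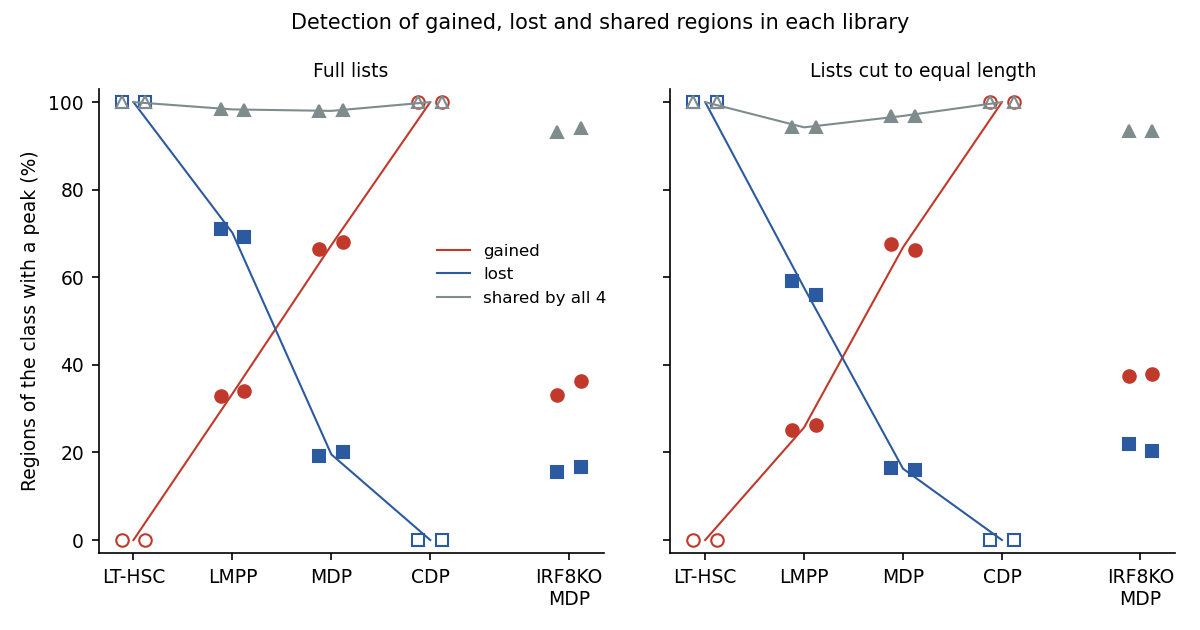
Percent of gained (red circles), lost (blue squares) and shared (grey triangles) regions with a peak in each library, one symbol per library, with lines through the means of the 4 wild-type stages; the left panel uses the full lists and the right panel lists of equal length. Open symbols are the LT-HSC and CDP libraries, where the rule sets the value at 0 or 100, and in the full lists the lost regions drop from 70.2% in LMPP to 19.6% in MDP while the gained regions go from 33.4% to 67.3%.

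Taken region by region, the routes were not mirror images. Among gained regions, 6064 (21.8%) were present in both LMPP and both MDP lists, and 7936 (28.5%) in both MDP and neither LMPP. A further 5646 (20.3%) were in none of these 4, so that a peak was first called in the CDP lists. Only 590 (2.12%) were in both LMPP and neither MDP list. The CDP libraries were also the deepest, with 10166833 and 7985428 tags. Wild-type MDP had 5394861 and 5328234, and LMPP 6478095 and 5789312. At equal length 22.8% of gained regions were in none of the 4 LMPP and MDP lists. Of gained regions called at both lengths, the full wild-type MDP lists held 93.3%. The part of depth in these shares was not tested beyond the cut to equal length. Among lost regions, the commonest route was to be kept in both LMPP lists and absent from both MDP lists, with 2640 (41.9%). Another 1522 (24.2%) were already absent from all 4 intermediate lists, 790 (12.5%) were kept in all 4, and 19 (0.302%) were in both MDP and neither LMPP list. The remaining 7613 gained regions (27.3%) and 1326 lost regions (21.1%) were in 1 replicate of a stage. At equal length 36.0% of gained regions were in both MDP and neither LMPP list, and 35.8% of lost regions in both LMPP and neither MDP list.

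IRF8KO MDP lists held fewer of the gained regions than wild-type MDP lists. They held 34.8% ± 2.20 against 67.3% ± 1.102 (SD, n = 2 each, exact two-sided permutation p = 0.333). Of the 16429 gained regions present in both wild-type MDP lists, 6919 (42.1%) were in neither IRF8KO list and 7310 (44.5%) were in both. Over all 50842 regions present in both wild-type MDP lists the share in neither IRF8KO list was 19.3%, over the lost regions among them 24.8%, and over the shared ones 2.83%. At equal length the shares were 41.3% of gained, 14.4% of all, 11.6% of lost and 2.81% of shared regions. For lost regions the order of the groups turned with list length. In the full lists IRF8KO MDP held 16.1% ± 0.887 and wild-type MDP 19.6%, and at equal length 21.2% ± 1.03 and 16.3% (SD, n = 2 each). The IRF8KO lists were shorter, with 50711 and 54259 peaks against 62117 and 64493, and had 43.7% and 43.9% of tags in peaks against 51.3% and 53.7%. The part of this difference in the shares was not tested beyond the cut to equal length.

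To describe genes, each region was given to the nearest protein-coding gene within 100 kb of its centre, and a gene's net was its gained minus its lost regions. Of 16667 genes with a region, 8416 (50.5%) had a net gain and 1596 (9.58%) a net loss, with a median net of 1. At equal length 14915 genes had a region, 4039 (27.1%) with a net gain and 3272 (21.9%) with a net loss, with a median of 0. Counts for the gene lists below are read against these shares.

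The conventional dendritic cell and the monocyte lists stood on the gaining side at both lengths. The plasmacytoid list did so by its genes but not by its regions. Of the conventional dendritic cell list, 23 of 26 genes had a net gain and 1 a net loss, with a median net of 3, and 113 of 229 regions were gained (49.3%, against 30.5% of all regions). At equal length 18 had a net gain and 2 a net loss, and 54 of 130 regions were gained (41.5%, against 21.4%). Of the monocyte and macrophage list, 21 of 25 genes had a net gain and none a net loss, and 90 of 196 regions were gained (45.9%). At equal length 19 had a net gain and 2 a net loss (42.7% of regions gained). The plasmacytoid dendritic cell list was closer to the background, with 13 of 18 genes on net gain and 1 on net loss, and 31.4% of regions gained. Its net of 46 regions in the full lists became -1 at equal length, with 20 gained and 21 lost of 94. By genes, 6 of 14 had a net gain there and 2 a net loss (42.9% and 14.3%, against 27.1% and 21.9% of all genes). Genes of antigen processing and the lysosome had a net gain in 13 of 17, with 35.8% of regions gained.

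Irf8, a transcription factor without which dendritic cells and monocytes fail to form normally, was the listed dendritic cell gene with the most gained regions. It had 27 regions on chromosome 8, of which 17 were gained and none lost. LT-HSC lists held 1 and 6 of the 27, LMPP 8 and 9, wild-type MDP 16 and 14, and CDP 26 and 23, while the knockout MDP lists held 10 and 12. In the full lists each stage thus held more than the one before it, and IRF8KO MDP lay between LMPP and wild-type MDP. At equal length 9 of 15 regions were gained and 1 was lost. The order was less clear there, with 1 and 1 in LT-HSC and 2 and 1 in LMPP. Wild-type MDP then held 7 and 4, CDP 14 and 9, and IRF8KO MDP 5 and 3, which overlapped wild-type MDP. The region at the start of the gene was present in LT-HSC replicate 2 and in all later lists, so it was not among the gained ones. The knockout lists also held it, and peaks carry no check of the genotype.

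The gained regions of Irf8 arrived in steps. Those centred 31.8 and 56.7 kb past the start were present in both LMPP lists and in every later list, IRF8KO MDP included. Those at 6.86, 20.7, 23.7, 41.2, 50.4 and 71.3 kb past the start and at -16.3 kb, before it, were in both wild-type MDP lists and no LMPP list. Of these, the regions at 41.2 and -16.3 kb were in neither IRF8KO list. A further set, at 38.1, 43.0, 76.4 and -28.2 kb, was in both CDP lists and none of the other 8. Of the other 4 gained regions, that at 47.9 kb was also in LMPP replicate 2 and both wild-type MDP lists, and those at 9.21 and 62.3 kb were in no LMPP or wild-type MDP list but in 1 and 2 IRF8KO lists. The last, at 88.5 kb, was in both LMPP lists, no wild-type MDP list and IRF8KO MDP replicate 2. A shared region at -21.0 kb was likewise held by both LT-HSC, both LMPP and both CDP lists and by no MDP list of either genotype.

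Among other dendritic cell genes, Btla had 11 regions, with 10 gained and none lost. LT-HSC lists held 0 and 0 of them, LMPP 4 and 4, MDP 7 and 7, and CDP 11 and 10, with 3 and 4 in IRF8KO MDP. Ccr7, the chemokine receptor that guides dendritic cells to lymph nodes, had 13 regions with 9 gained, and its counts ran 0 and 3 in LT-HSC, 8 and 9 in LMPP, 10 and 9 in MDP, and 11 and 11 in CDP. In the full lists Ccr7 thus held most of its later regions at the LMPP stage. At equal length 1 of its 2 regions was gained, and LMPP lists held 0 and 1 of the 2, MDP 1 and 2, and CDP 2 and 1. Batf3, a factor of the cross-presenting dendritic cell, had 6 of 11 gained, and its regions were as frequent in MDP (11 and 9) as in CDP (10 and 10). Id2, a repressor that favours conventional over plasmacytoid dendritic cells, had 7 of 20 gained and 1 lost. In the plasmacytoid list, Siglech had 7 of 11 gained, Lair1, an inhibitory receptor, 8 of 13, and Tcf4, the factor that directs plasmacytoid dendritic cells, 11 of 40 with 2 lost. At equal length Tcf4 had 3 gained and 3 lost of 15.

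Zeb2 went the other way within the plasmacytoid list. It encodes a repressor used in several blood lineages. Of its 27 regions 2 were gained and 6 lost, and at equal length none was gained and 8 of 16 were lost. LT-HSC lists held 13 and 24 of them, LMPP 15 and 13, MDP 8 and 8, and CDP 12 and 12, with 4 and 6 in IRF8KO MDP. The count was lower in MDP than in LT-HSC or CDP.

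Among monocyte genes, Itgam, the integrin CD11b, had 14 regions with 10 gained. LT-HSC lists held 0 and 2, LMPP 10 and 6, MDP 11 and 13, and CDP 13 and 13. F13a1, a clotting factor subunit of monocytes, had 10 of 21 gained, and its counts stayed low in LMPP at 4 and 5 before reaching 12 and 10 in MDP and 18 and 16 in CDP. Fn1, fibronectin, had 7 of 11 gained in the full lists and none of 5 at equal length. Neutrophil genes did not stand far from the background as a list, with 10 of 17 on net gain and 3 on net loss and 32.9% of regions gained. Within it, Ctsg, a granule protease, had 4 of 6 gained: no LT-HSC or LMPP list held any of its regions, MDP lists held 4 and 4, and CDP 5 and 5, with 3 and 4 in IRF8KO MDP.

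The genes of the sort markers are given beside the gates. They cannot check the labels, since 50.5% of all genes with a region had a net gain in the full lists. Flt3, which encodes CD135, had 16 regions, 7 of them gained and none lost. LT-HSC lists held 3 and 7, LMPP 8 and 7, MDP 12 and 11, and CDP 15 and 15. Csf1r, which encodes CD115, had 5 of 8 gained, with 1 and 2 in LT-HSC, 3 and 3 in LMPP, 3 and 5 in MDP and 7 and 8 in CDP. Cd48 had 3 of 6 gained. Slamf1, which encodes the CD150 that marks LT-HSC, had 5 regions with 1 gained and 1 lost, and at equal length 2 of 3 were lost. Il7r, whose product was gated out of CDP, had 5 of 6 regions gained, and Kit, whose product (CD117) was intermediate in CDP, had 10 of 20 gained and none lost. Kit counts were 3 and 6 in LT-HSC, 18 and 14 in CDP, and 4 and 5 in IRF8KO MDP against 12 and 11 in wild-type MDP. At equal length Kit had 2 gained and 2 lost of 6. Ly6a, which belongs to a family of near-identical neighbours, had 2 regions, neither gained nor lost.

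**Figure D3:**
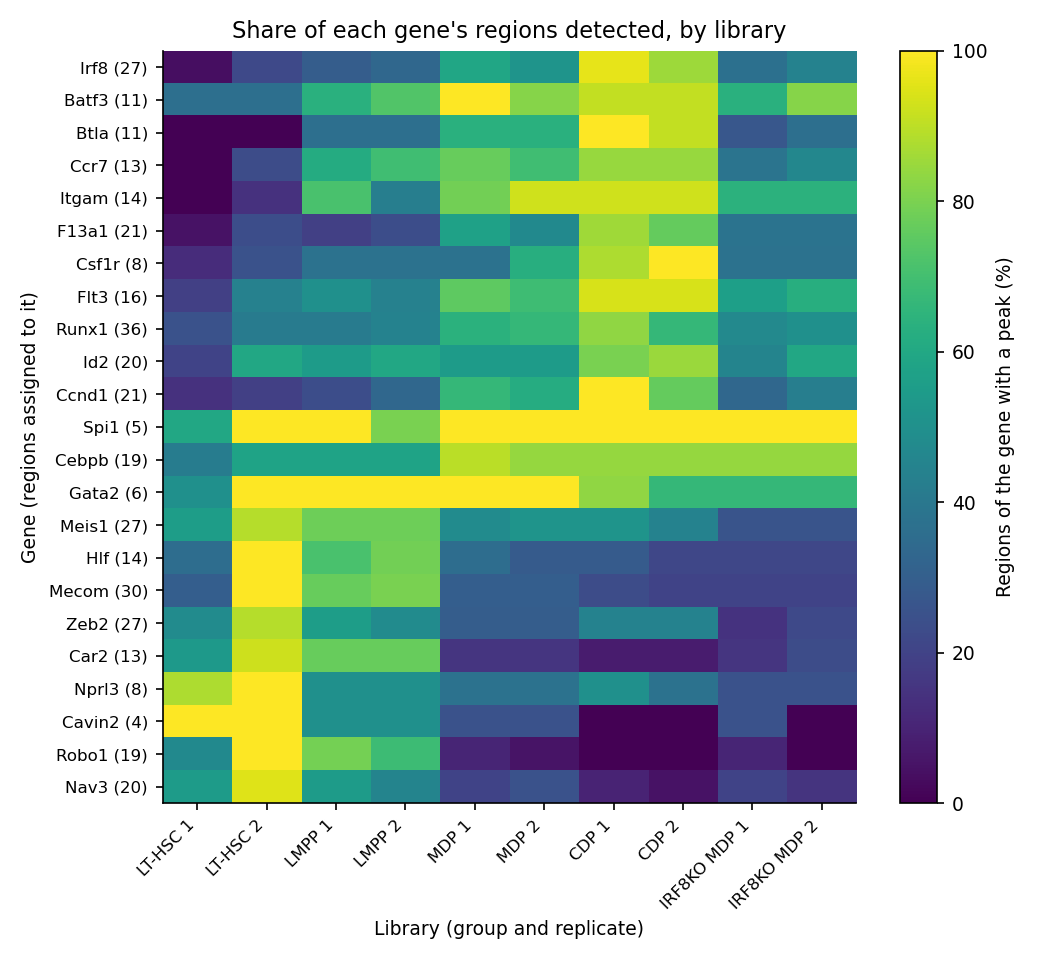
Share of each gene's regions (number in brackets) with a peak in each of the 10 libraries, in percent, for 23 genes named in the text. The upper rows, Irf8 to Ccnd1, are brighter in both CDP libraries than in both LT-HSC libraries, and the lower rows, Meis1 to Nav3, are brightest in LT-HSC replicate 2 (Cavin2 in both LT-HSC libraries), as for Mecom with 30 regions in LT-HSC replicate 2 and 6 in CDP replicate 2.

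The stem cell list moved with list length. In the full lists 8 of 25 genes had a net gain and 6 a net loss, with 51 of 286 regions gained (17.8%) and 38 lost (13.3%, against 6.91% of all regions). At equal length 3 had a net gain and 11 a net loss, with 22 of 166 regions gained and 51 lost (30.7%, against 18.1%). Without LT-HSC replicate 1 it had 51 gained and 116 lost. The net gain of the full lists came from such genes as Kit and Erg, a factor shared by stem cells and later progenitors, with 11 of 28 gained.

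Mecom, a factor required to keep stem cells, had no gained region in the full lists and 5 lost of 30. LT-HSC lists held 9 and 30 of the 30, LMPP 23 and 24, MDP 9 and 9, and CDP 7 and 6, with 6 and 6 in IRF8KO MDP. LMPP resembled LT-HSC replicate 2, and the drop fell between LMPP and MDP. All 30 regions had a peak in LT-HSC replicate 2 and 21 of them had none in replicate 1, so the rule counted 5 as lost where replicate 2 alone gave 22. The regions at 32.6, 53.6, 60.9, 179 and 348 kb past the start were the 5 lost ones, and those at 1.08 and -5.24 kb stayed in all 10 lists. At equal length 2 of 18 were gained and 8 lost. Hlf, a factor of stem cell quiescence, had 3 of 14 lost and none gained, with 5 and 14 in LT-HSC, 10 and 11 in LMPP, 5 and 4 in MDP and 4 and 3 in CDP. Meis1, a HOX cofactor, had 4 of 27 lost and 2 gained, with 15 and 24 in LT-HSC, 21 and 21 in LMPP, 13 and 14 in MDP and 14 and 12 in CDP.

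**Figure D4:**
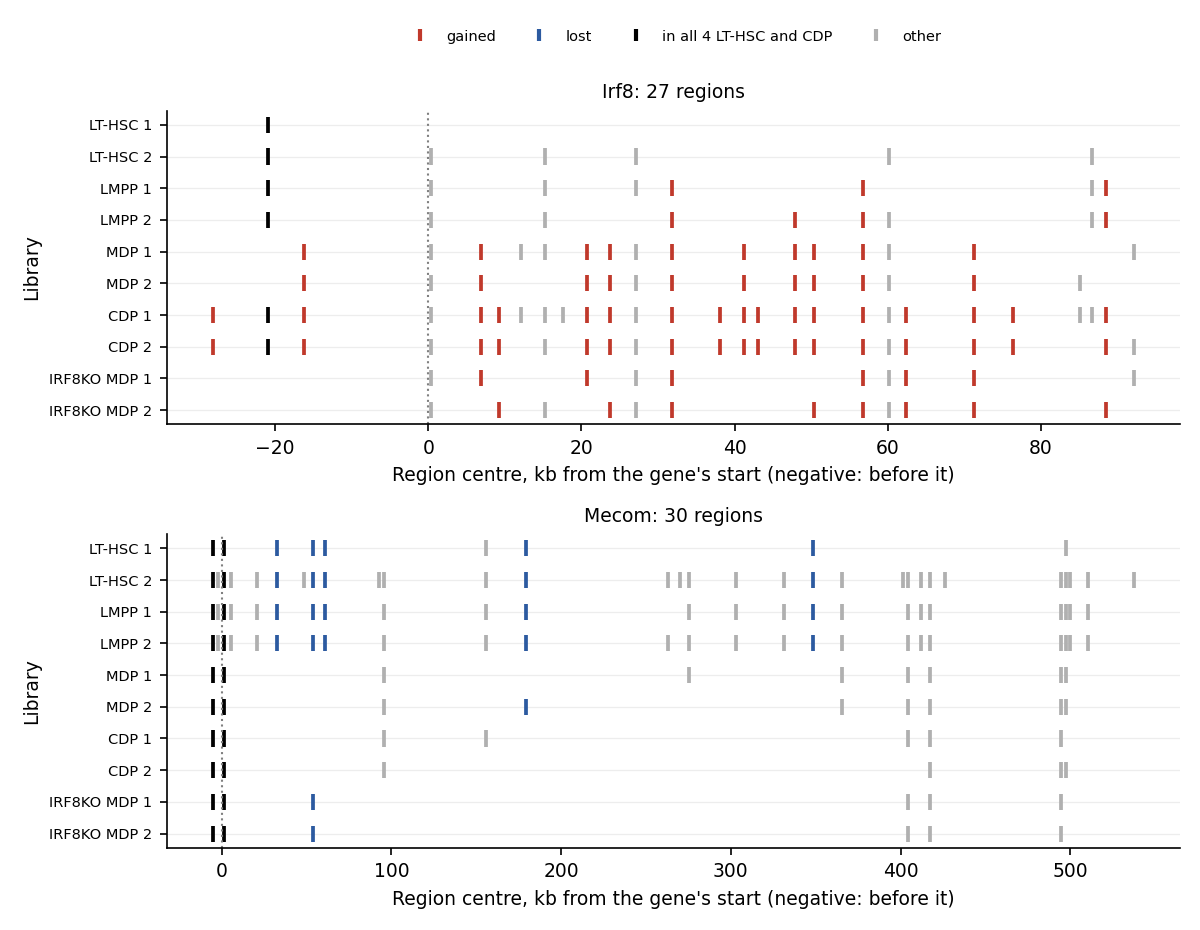
Peaks at the regions of Irf8 (upper panel, 27 regions) and Mecom (lower panel, 30 regions) in each library, by distance of the region's centre from the start of the gene in kb; each tick is a region with a peak, red if gained, blue if lost, black if in all 4 LT-HSC and CDP lists, grey otherwise. Irf8 ticks fill in from LMPP to CDP and thin out in IRF8KO MDP, and Mecom ticks thin out between LMPP and MDP, with the 2 black regions near the start in every library.

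Red cell genes formed the list with the largest lost share of the 19 lists in the full lists. Of 18 genes, 12 had a net loss and 3 a net gain, against 9.58% and 50.5% of all genes, and 31 of 108 regions were lost (28.7%) with 14 gained. At equal length 15 had a net loss and 2 a net gain, with 34 of 72 regions lost (47.2%) and 3 gained. LT-HSC lists held 54.6% and 79.6% of the regions of this list, LMPP 47.2% and 44.4%, MDP 38.0% and 40.7%, and CDP 44.4% and 42.6%. The list differed from the stem cell list in when its lost regions went: 8 of 31 were in both LMPP lists, against 24 of 38 for the stem cell list and 65.3% over all lost regions with a gene. Car2, a carbonic anhydrase, had 5 of 13 lost, with 7 and 12 in LT-HSC, 10 and 10 in LMPP, 2 and 2 in MDP and 1 and 1 in CDP. Nprl3, whose introns hold the enhancers of the alpha globin genes, had 4 of 8 lost, with 7 and 8 in LT-HSC, 4 and 4 in LMPP, and 4 and 3 in CDP. Tfrc, the transferrin receptor that dividing cells also use, had 4 of 9 gained and none lost.

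Platelet genes were split. In the megakaryocyte list 7 of 20 genes had a net gain and 4 a net loss in the full lists, and 2 and 9 of 18 at equal length. Cavin2, a protein of membrane caveolae abundant in platelets, had all 4 of its regions lost at both lengths, with 4 and 4 in LT-HSC, 2 and 2 in LMPP, 1 and 1 in MDP and 0 and 0 in CDP. Rap1b, a small GTPase of platelets and many other cells, had 9 of 26 gained and 2 lost. The mast cell and basophil list had 8 of 11 genes on net gain and 2 on net loss (37.1% of regions gained), with 7 of 10 gained in Alox5, the enzyme that starts leukotriene synthesis.

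The lineage factors went in both directions, with 9 of 16 on net gain and 6 on net loss at each list length. Gata1 had 3 regions, with 2 lost and 1 gained. The lost ones lay at -0.312 and -3.61 kb, before the start, and were held by the LT-HSC lists alone. Gata2, a factor of stem and mast cells, had 1 of 6 lost and none gained, and at equal length 3 of 4 were lost. The lost region, 9.50 kb past the start, was held by both LT-HSC, both LMPP and both wild-type MDP lists and by no CDP and no IRF8KO MDP list. Spi1, which encodes PU.1, had 5 regions, none gained and none lost, and 3 to 5 of them were held by every list. Runx1, a master factor of blood formation, had 13 of 36 gained and none lost. Cebpa and Cebpb, factors of myeloid cells, had 3 of 10 and 4 of 19 gained. Cebpb counts were 16 or 17 in every MDP and CDP list of either genotype, against 8 and 11 in LT-HSC. Klf4, a factor of monocytes, had 4 of 15 gained, and Gfi1, a repressor of the neutrophil branch, 3 of 6. The list's net of 49 regions became -4 at equal length and -5 without LT-HSC replicate 1.

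**Figure D5:**
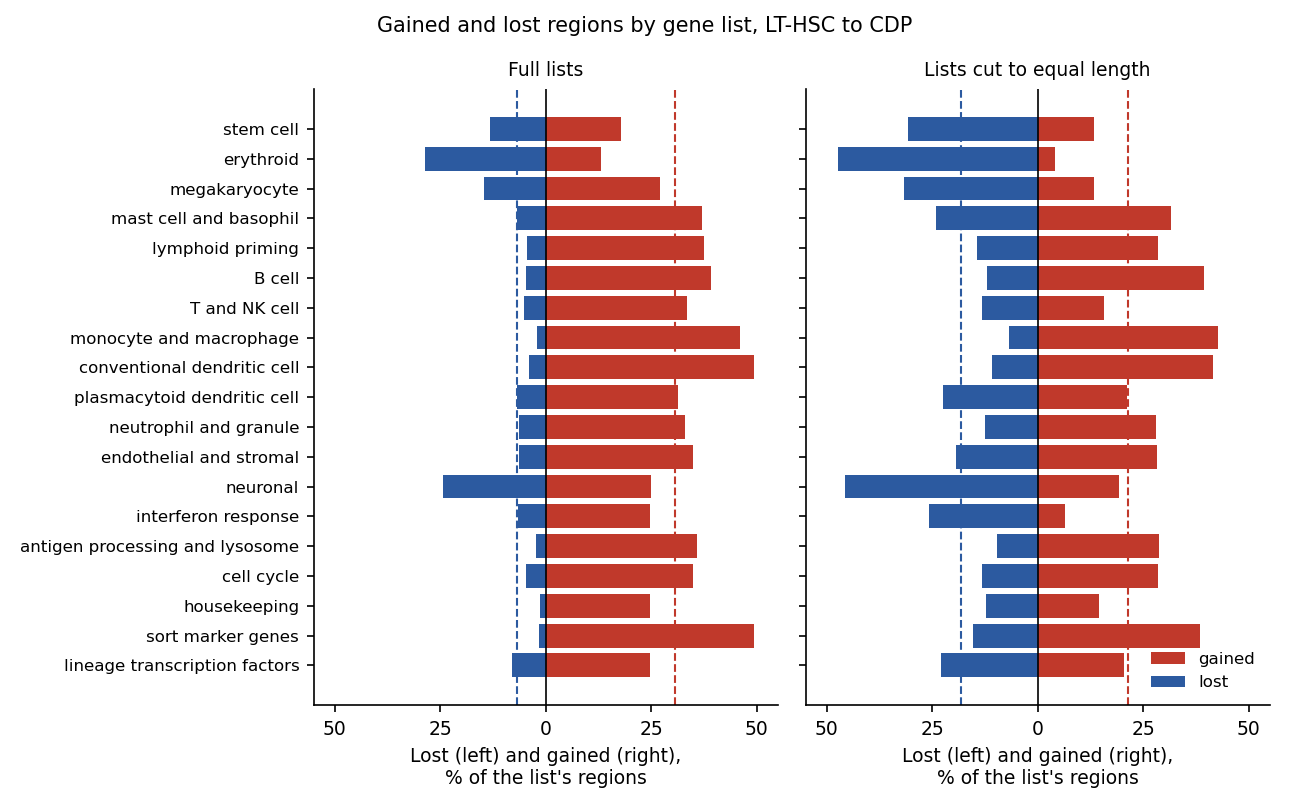
Percent of each gene list's regions that were gained (red bars, to the right) and lost (blue bars, to the left) from LT-HSC to CDP, with dashed lines at the same percent over all regions (30.5 and 6.91 in the full lists, 21.4 and 18.1 at equal length). Erythroid and neuronal genes pass the lost line by most in both panels, and conventional dendritic cell and monocyte genes pass the gained line. The gained line is also passed in both panels by the sort marker (49.2% and 38.5%) and B cell lists (39.1% and 39.4%). The lymphoid priming, mast cell, neutrophil, endothelial, antigen processing and cell cycle lists pass it in both panels too.

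In the lymphoid priming list 14 of 17 genes had a net gain and none a net loss, with 74 of 197 regions gained (37.6%), and at equal length 8 had a net gain and 3 a net loss. Foxo1, a factor of lymphocyte survival, had 10 of 23 gained and none lost. Ikzf1, which encodes Ikaros, had 11 of 30 gained and 2 lost in the full lists and 4 and 4 of 17 at equal length. In the B cell list 9 of 12 genes had a net gain and none a net loss, with Cd22 and Ms4a1 gaining all 3 of their regions each. At equal length 7 of 11 B cell genes had a net gain and 2 a net loss, with 39.4% of regions gained. The T and NK cell list was near the background, with 9 of 16 genes on net gain and 1 on net loss and 33.3% of regions gained, and at equal length 2 and 4 of 12. Cd4 had both of its regions gained, and they were held by both wild-type MDP and both CDP lists and by no LMPP or IRF8KO list.

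Lists of non-blood cells were not flat either, and the part of such cells in these calls was not tested. The endothelial and stromal list had 13 of 16 genes on net gain and 3 on net loss, with 34.8% of regions gained and 6.38% lost, and 7 and 4 of 15 genes at equal length. Its gained regions were led by Cxcl12, a chemokine, with 8 of 18. The neuronal list had 8 of 15 genes on net gain and 5 on net loss, with 50 regions gained and 49 lost of 200, and the lost share of 24.5% was above the 6.91% of all regions. At equal length 4 genes had a net gain and 7 a net loss, with 22 regions gained and 52 lost of 114. Of its 49 lost regions 41 were in both LMPP lists. These were regions of long genes such as Robo1, an axon guidance receptor, with 9 of 19 lost, and Nrxn3, a synaptic adhesion protein, with 9 of 24. Robo1 counts were 9 and 19 in LT-HSC, 15 and 13 in LMPP, 2 and 1 in MDP and 0 and 0 in CDP. Ctnnd2, a catenin, went against the list with 14 of 24 gained and 3 lost.

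Housekeeping genes had 17 of 69 regions gained (24.6%) and 1 lost in the full lists, and 6 gained and 5 lost of 41 at equal length. The interferon response list had 15 gained and 4 lost of 61 in the full lists, and 2 gained and 8 lost of 31 at equal length, so its direction turned. Irf1, an interferon-induced factor, had 7 of 12 gained. In the cell cycle list 10 of 19 genes had a net gain and 1 a net loss. Ccnd1, cyclin D1, had 12 of 21 gained and none lost, with 3 and 4 in LT-HSC, 5 and 7 in LMPP, 14 and 13 in MDP, 21 and 16 in CDP and 7 and 9 in IRF8KO MDP. Cdk6, the kinase whose level sets the exit of stem cells from rest, had 14 of 35 gained and 1 lost, and 6 and 5 of 21 at equal length.

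Over the whole genome, the most net gained regions fell to large genes. Foxp1, a forkhead repressor of lymphoid and myeloid cells, had 33 of 79 gained and 3 lost, with 15 and 34 in LT-HSC, 38 and 35 in LMPP, 44 and 49 in MDP and 68 and 59 in CDP. Lpp, an adhesion protein, had 25 of 57 gained, and Itga9, an integrin, 23 of 36 with none lost. Snx29, Sgms1, Asap1, Arhgap26 and Hivep2 followed with 20 to 23 gained each. The most net lost regions fell to Nav3, a guidance gene, with 10 of 20 lost and none gained at full and 10 of 11 lost at equal length, and to Opcml, an adhesion molecule, with 10 of 15. Nav3 counts were 11 and 19 in LT-HSC, 11 and 9 in LMPP, 4 and 5 in MDP and 2 and 1 in CDP. Others among the most net lost were Robo1, Nrxn3, Astn2, Adamtsl1 and Ppp2r2b. A long gene can collect more regions, and its count is no measure of its expression.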

How the data were processed

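The ATAC-seq peak lists of 10 libraries were used as deposited. The build was mm10 (GRCm38), and the tools were Bowtie 1.1.2 and HOMER 4.9, per the submitters' processing notes. Peaks of each library were called alone by HOMER, per the file headers, with no control, peaks of 500 bp at least 1000 bp apart, a false discovery rate of 0.001, 4-fold enrichment over the local 10 kb and at most 1 tag per bp. A shift of reads for the transposase's cut is not stated in the headers or labels. The deposited score was 1 in every row, so only positions and row order were used, the order taken as strength. With no tag counts per peak, detection was compared and no count model was run.

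Peaks were merged at 1 bp overlap over the 4 lists. Regions went to the nearest protein-coding gene within 100 kb (21631 genes, RefSeq GRCm38.p6), and starts came from the RefSeq promoter table, which held a start for 17274 of them and none on chromosome 18. Of 323 distinct listed genes in 19 lists, 322 matched, Mx2 being the other. The genes named by rule were the 8 most net gained and 8 most net lost, all sort marker genes and lineage factors, up to 3 per other list, and those nearest the 3 highest ranked regions each way; a few of these are left out here, and other genes were named after their values were seen, as were those of the printed promoters. The members and lists were chosen with earlier results of these data known. Groups of 2 libraries were compared by exact two-sided permutation tests, and p-values measure the spread between these libraries only. The merging and counting steps were tested on simulated data. Alternatives were list length, overlap, merging, stricter lists, distance limits and leaving out each library. Python 3.11.15 with numpy 2.4.6, pandas 2.3.3, scipy 1.17.1 and matplotlib 3.10.9 was used.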

Additional observations from a re-analysis of the deposited data

How the results depend on the processing

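No paired analysis was possible because the calls come from no test and the labels do not say that a replicate number marks shared animals or days. Gained regions (27849) became 10495 at equal list length and 14247 in the top 50% of each list; lost regions (6297) became 2944 in the top 50%. Leaving out each library in turn gave 28192 to 37142 gained and 6728 to 16787 lost, the highest loss without LT-HSC replicate 1. Within 2.5 kb of a start lay 6.64% of gained and 10.0% of lost regions, and at equal length within 1 kb 3.86% and 10.0%. Detection of gained regions at equal length was 25.7% in LMPP and 37.6% in IRF8KO MDP; in the top 25% of both lists it was 62.4% in LMPP, 98.7% in MDP and 58.4% in IRF8KO MDP; in regions called at both lengths, an alternative added after seeing the data, it was 49.99%, 93.3% and 49.3%. For lost regions the equal-length values were 57.6%, 16.3% and 21.2%, those of the top 25% were 89.8%, 31.7% and 22.2%, and at both lengths LMPP had 74.7% and MDP 21.0%. At equal length the net turned negative for 6 of 19 gene lists: stem cell (-29), megakaryocyte (-11), plasmacytoid dendritic cell (-1), neuronal (-30), interferon response (-6) and lineage factors (-4). Leaving out each library in turn, it turned negative for 3 lists, each time without LT-HSC replicate 1: stem cell (-65 to 35), neuronal (-43 to 9) and lineage factors (-5 to 85). Of 88 named genes, Klrb1c (-1) and Selp (-1) turned at equal length and 75 kept their sign. The cause of these changes was not tested. Where a peak had to cover 50% of a region, 32029 were gained and 6318 lost; an overlap of 200 bp could not change a call, since each peak lies wholly in its region. An absence means that no peak was called in that library, not that the region was closed. LT-HSC replicate 1 had the fewest peaks and the lowest share of tags in peaks of the 10 libraries.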

Other observations

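Some gained and lost regions lay in runs along the chromosome. A run was counted as at least 3 neighbouring merged regions with the same call and no other region between them. Runs held 9284 gained regions (33.3%) and 751 lost regions (11.9%). The shares cannot be compared between the classes, since gained regions are 30.5% and lost regions 6.91% of all, and a larger class forms more runs by its size. The longest gained run had 16 regions over 105.7 kb at Ankrd55, a gene of ankyrin repeats (chr13:112308575-112414290). LMPP lists held 4 and 4 of the 16, wild-type MDP 13 and 13, and IRF8KO MDP 9 and 8. A run of 14 lay over the Klk1b kallikrein cluster on chromosome 7, where LMPP held 1 and 1, wild-type MDP 6 and 6 and IRF8KO MDP none. These genes are close paralogs, so reads there may be placed among copies. A run of 13 lay around Scn2b, Scn4b and Tmprss4 on chromosome 9, with 5 and 9 in wild-type MDP and 1 and 0 in IRF8KO MDP. The longest lost run had 11 regions over 444 kb near Ghitm on chromosome 14, with 10 and 9 in LMPP and 2 and 1 in MDP.

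Of 1005 microRNA hairpins, 81 (8.06%) had a gained and 11 (1.09%) a lost region within 2 kb, but at equal list length 34 had a gained and 34 a lost one (3.38% each). Called alike at both lengths were 27 and 10. A pair of the former belong to the myeloid branch and are shown with RefSeq mature sequences, the seed (bases 2 to 8) in capitals.
miR-223-3p: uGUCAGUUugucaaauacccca
miR-511-3p: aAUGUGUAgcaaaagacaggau
The region over Mir223, which restrains neutrophil production, was held by both LMPP, both CDP and both IRF8KO MDP lists, by no LT-HSC list and by no wild-type MDP list. A region 937 bp from Mir511, which lies in the mannose receptor gene Mrc1, was held by LMPP replicate 2 and by every wild-type MDP, CDP and IRF8KO MDP list. The seeds of the pair differ.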
